A study of Mus musculus with 18 samples.

Results

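The peaks described here are the H3K9me3 peaks of mouse CD8 T cells that the authors annotated to LINE-1 elements of the L1Md group. A peak was a member when its deposited annotation gave the repeat family L1 and a repeat name starting with L1Md. By this rule 8262 of the 375410 peaks in 4 peak lists were members: 4961 of 85960 in wild-type (WT) replicate 1, 283 of 23304 in WT replicate 2, 1367 of 111149 in knockout (KO) replicate 1 and 1651 of 154997 in KO replicate 2. The WT libraries came from Ehmt2+/+ and the KO libraries from Ehmt2-/- cells. Ehmt2 encodes G9a, a histone methyltransferase. All 4 libraries were made from C57BL/6 spleen CD8+ T cells cultured with antibodies to CD3 and CD28, and their chromatin was digested for 5 min with micrococcal nuclease before the native immunoprecipitation. The labels state no sex, age or form of the deletion, nor whether the 2 libraries of a genotype came from separate animals, so the spread between libraries may be technical.

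LINE-1 (L1) elements are retrotransposons: a full-length copy carries its own promoter, an RNA-binding protein and a reverse transcriptase, and moves by copying its RNA into a new place in the genome. In the mouse, the families L1Md_A, L1Md_T and L1Md_Gf have copies that can still move, while L1Md_F, L1Md_F2 and L1Md_F3 belong to the older F lineage. Trimethylation of histone H3 at lysine 9 (H3K9me3) is a mark of silent chromatin that covers many retrotransposons and is laid down mainly by SETDB1 and the SUV39H enzymes, whereas G9a is best known for mono- and dimethylation of the same residue.

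The lists differed in length and depth before any element was considered. They covered 72.1 Mb in WT replicate 1, 16.4 Mb in WT replicate 2, 81.5 Mb in KO replicate 1 and 129 Mb in KO replicate 2. The deposited Peak Scores, the peak caller's measure of a peak's signal, were whole multiples of a step of 0.541, 1.58, 0.485 and 0.466 in that order. If a step is worth the same number of reads in each list, WT replicate 2 had 0.343 times the depth of WT replicate 1, and the KO libraries 1.11 and 1.16 times. WT replicate 1 also stood apart on the sex chromosomes. It had 3334 peaks on chromosome X, 3.88% of its list, and 0 on the assembled chromosome Y, against 195, 384 and 464 on X (0.299% to 0.837%) and 5, 14 and 13 on Y in the other 3 libraries.

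L1Md peaks made up 5.77% of the list of WT replicate 1 (95% Wilson interval 5.62% to 5.93%) and close to 1% of every other list. The share was 1.21% in WT replicate 2 (1.08% to 1.36%), 1.23% in KO replicate 1 (1.17% to 1.30%) and 1.07% in KO replicate 2 (1.02% to 1.12%). These intervals cover counting error only. WT replicate 1 alone was high, and WT replicate 2 lay between the KO libraries. The genotype means were 3.49% in WT and 1.15% in KO, a difference of -2.35 percentage points (KO minus WT, n = 2 and 2) that is smaller than the gap between the WT libraries (exact two-sided permutation p = 0.667, where 0.333 is the smallest p that 2 against 2 libraries can give). Without WT replicate 1 the difference was -0.067 percentage points. On autosomes alone the shares were 5.33%, 1.19%, 1.21% and 1.05%, so the height of WT replicate 1 was about as large without chromosome X. By covered length, L1Md peaks took 4.73% and 1.01% of the WT lists and 1.09% and 0.856% of the KO lists (difference -1.90 points, exact permutation p = 0.667; -0.039 without WT replicate 1 and -3.76 without WT replicate 2).

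Sorted by name, 6 L1Md names carried peaks, and L1Md_F2 held the most peaks in every list. L1Md_F2, of the F lineage, accounted for 2188 and 154 peaks in WT and 797 and 989 in KO, which is 44.1% and 54.4% of the L1Md peaks in WT and 58.3% and 59.9% in KO. L1Md_F followed with 919 and 58 peaks in WT and 288 and 408 in KO. L1Md_F3 had 357 and 24 in WT and 126 and 137 in KO. Each F name held nearly the same share of the list in WT replicate 2 and both KO libraries: 0.249% to 0.263% for L1Md_F, 0.638% to 0.717% for L1Md_F2 and 0.0884% to 0.113% for L1Md_F3. WT replicate 1 lay above these ranges at 1.07%, 2.55% and 0.415%, between 3.76 and 4.12 times the KO mean.

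The families with mobile copies showed a wider gap. L1Md_T, whose full-length copies carry tandem promoter monomers, had 767 and 28 peaks in WT and 65 and 40 in KO, or 0.892% and 0.120% of the WT lists against 0.0585% and 0.0258% of the KO lists. L1Md_T was thus higher in both WT libraries than in either KO library. L1Md_A, named after another kind of promoter monomer, had 634 and 17 peaks in WT and 82 and 69 in KO (0.738% and 0.0729% against 0.0738% and 0.0445%), so WT replicate 2 fell between the KO libraries. L1Md_Gf was rare, with 96 and 2 peaks in WT and 9 and 8 in KO (0.112% and 0.00858% against 0.00810% and 0.00516%). In WT replicate 1 the shares of L1Md_A, L1Md_T and L1Md_Gf were 12.5, 21.2 and 16.8 times the KO mean, and in WT replicate 2 they were 1.23, 2.85 and 1.29 times the KO mean. Of the 4 names with at least 20 peaks in each list (L1Md_T and the F names), L1Md_T had both WT shares above both KO shares, and none had both KO shares above both WT shares. Among all 136 repeat names of that size, 38.2% were of the first kind and 21.3% of the second, so 1 name of 4 is no more than the background.

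**Figure D1:**
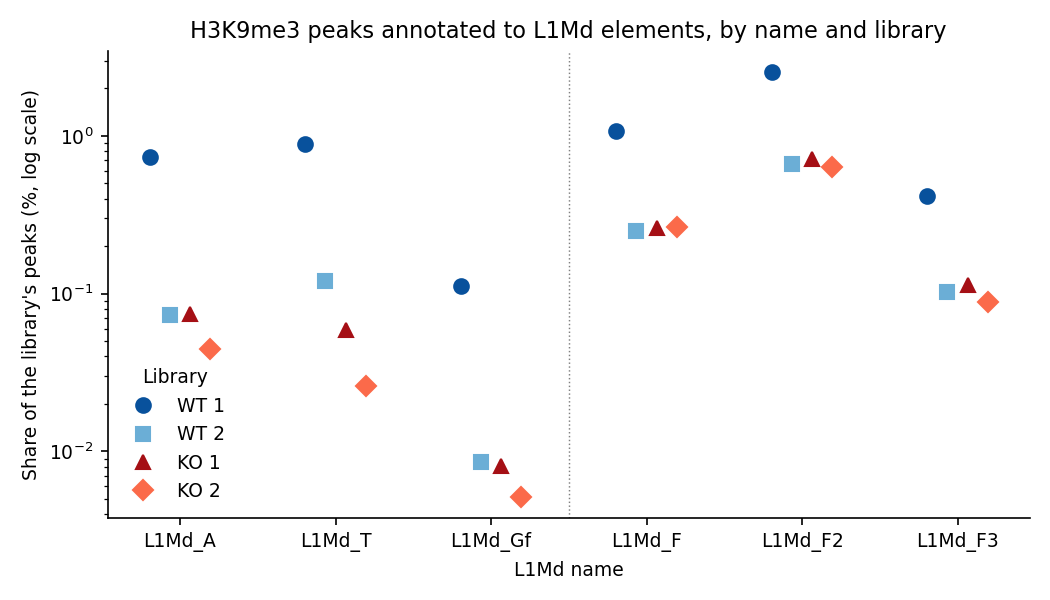
Share of each library's H3K9me3 peaks annotated to each L1Md name, in percent on a log axis, with 1 point per library (WT replicates 1 and 2 in blues, KO replicates 1 and 2 in reds); the dotted line separates the families with mobile copies (left) from the F lineage (right). WT replicate 1 lies above the other libraries at all 6 names, and L1Md_T separates WT replicate 2 (0.120%) from both KO libraries (0.0585% and 0.0258%).

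The make-up of the L1Md peaks differed between the WT and the KO lists, and also between the lists of a genotype. L1Md_A, L1Md_T and L1Md_Gf together gave 1497 of 4961 L1Md peaks in WT replicate 1 (30.2%), 47 of 283 in WT replicate 2 (16.6%), 156 of 1367 in KO replicate 1 (11.4%) and 117 of 1651 in KO replicate 2 (7.09%). Both WT libraries lay above both KO libraries, with means of 23.4% and 9.25% (difference -14.1 points, exact permutation p = 0.333, the smallest possible; 0.963 after Benjamini-Hochberg adjustment over the 13 comparisons made). Without WT replicate 1 the difference was -7.36 points. Within all L1 peaks, old and young, the L1Md names took 26.3% and 9.24% in WT and 6.12% and 5.35% in KO (difference -12.0 points, exact permutation p = 0.333; adjusted 0.963), -3.50 points without WT replicate 1 and -20.6 without WT replicate 2. Older L1 elements, those of family L1 without an L1Md name, made up less of the WT lists: 16.2% and 11.9% against 18.9% and 18.8% of the KO lists. In WT replicate 2 the L1Md share of the whole list lay between the KO libraries (1.21% against 1.23% and 1.07%). Its higher L1Md share of L1 peaks thus came with a lower older L1 share, not with a higher L1Md share of the list. Peaks at IAP elements, long terminal repeat retrotransposons that are young in the mouse, made up 1.34% and 0.652% of the WT lists and 0.369% and 0.366% of the KO lists.

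Because the lists differ in length, the 23304 highest scoring peaks of each list were also compared, which is the whole list of WT replicate 2. The lowest score kept then stood at 35 steps in WT replicate 1, 4 in WT replicate 2, 30 in KO replicate 1 and 41 in KO replicate 2. L1Md peaks made up 4.22% and 1.21% of these lists in WT and 0.755% and 0.433% in KO (exact permutation p = 0.333). WT replicate 2 thus lay above both KO libraries here. Its own share was unchanged because its list was not cut, while the KO shares fell from 1.23% and 1.07% in the whole lists. In every whole list the L1Md share was lowest in the top decile of scores, so keeping only top peaks lowers it. All 5 names with at least 50 peaks over the equally long lists, L1Md_A, L1Md_T, L1Md_F, L1Md_F2 and L1Md_F3, had both WT shares above both KO shares. This was true of 24.3% of the 189 repeat names of that size. L1Md_A, L1Md_T and L1Md_F3 (68 and 24 peaks in WT, 17 and 8 in KO) reached 50 peaks only through their WT peaks. The filter thus favours names that are high in WT, and no conclusion is drawn from the count. L1Md_T had 97 and 28 peaks there in WT and 6 and 7 in KO. L1Md_A had 98 and 17 in WT and 8 and 2 in KO, and L1Md_F2 463 and 154 in WT and 106 and 64 in KO. Older L1 peaks did not separate the genotypes in these lists, at 8.45% and 11.9% in WT and 14.2% and 11.8% in KO. IAP peaks had the same order as L1Md peaks, at 1.85% and 0.652% in WT and 0.549% and 0.575% in KO. Higher WT shares were thus not particular to L1Md peaks. Whether list length or a possible difference in depth plays a further part in this order was not tested.

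The height of WT replicate 1 was set beside that of other repeats. For each of the 377 repeat names with at least 50 peaks over the 4 lists, the share in WT replicate 1 was divided by the mean share of the other 3 lists. The median name stood at 0.857 and the median of 67 older L1 names at 0.722. L1Md_Gf had rank 1 with a ratio of 15.3, L1Md_T rank 3 with 13.1 and L1Md_A rank 5 with 11.6. A name could reach 50 peaks through WT replicate 1, the library that the ratio measures, so the ranks are only a description. L1Md_Gf did so, with 96 peaks there, 2 in WT replicate 2 and 9 and 8 in KO. Its ratio therefore rests on few peaks in the other lists. The F names had ranks 14 (L1Md_F, 4.16), 15 (L1Md_F3, 4.09) and 17 (L1Md_F2, 3.79). Of the 377 names, 22 exceeded a ratio of 3, and these include all 6 L1Md names. Ranks 2 and 4 were held by the IAP long terminal repeats IAPEY_LTR (13.5) and IAPEY2_LTR (12.6).

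Peak Score, used here only as a percentile within its own list (the share of peaks that score lower, with ties counted at their middle rank), placed L1Md peaks in the middle or lower part of each ranking. The median percentile was 49.3 in WT replicate 1 (quartiles 28.5 and 69.4), 32.3 in WT replicate 2 (20.3 and 60.1), 46.6 in KO replicate 1 (22.4 and 66.8) and 40.7 in KO replicate 2 (19.2 and 60.5). The genotypes overlapped (means 40.8 in WT and 43.6 in KO, exact permutation p = 1). Among the names, L1Md_F had the highest median in WT replicate 1 (57.5) and KO replicate 1 (52.0). In WT replicate 2 its median of 38.0 equalled that of L1Md_F2, below that of the 2 L1Md_Gf peaks (51.1). In KO replicate 2 the medians of L1Md_A (50.5), L1Md_T (50.1) and the 8 L1Md_Gf peaks (72.2) lay above that of L1Md_F (45.9). L1Md peaks were scarce at the very top: only 2.30% and 2.12% of them in WT and 4.90% and 3.51% in KO fell in the top decile of their list.

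Along the ranking the L1Md share had another shape in WT replicate 1 than elsewhere. In that library it rose from 4.25% in the lowest decile of scores to 8.15% in decile 7 and dropped to 1.34% in the highest. In KO replicate 1 it ran between 1.11% and 1.64% through the lowest 8 deciles and reached 0.594% in the highest, and in KO replicate 2 it went from 1.31% to 0.371%. In WT replicate 2 the lowest decile was the richest, at 2.28%, and the highest held 6 L1Md peaks (0.261%). WT replicate 1 had the highest L1Md share of the 4 libraries in each of the 10 deciles.

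**Figure D2:**
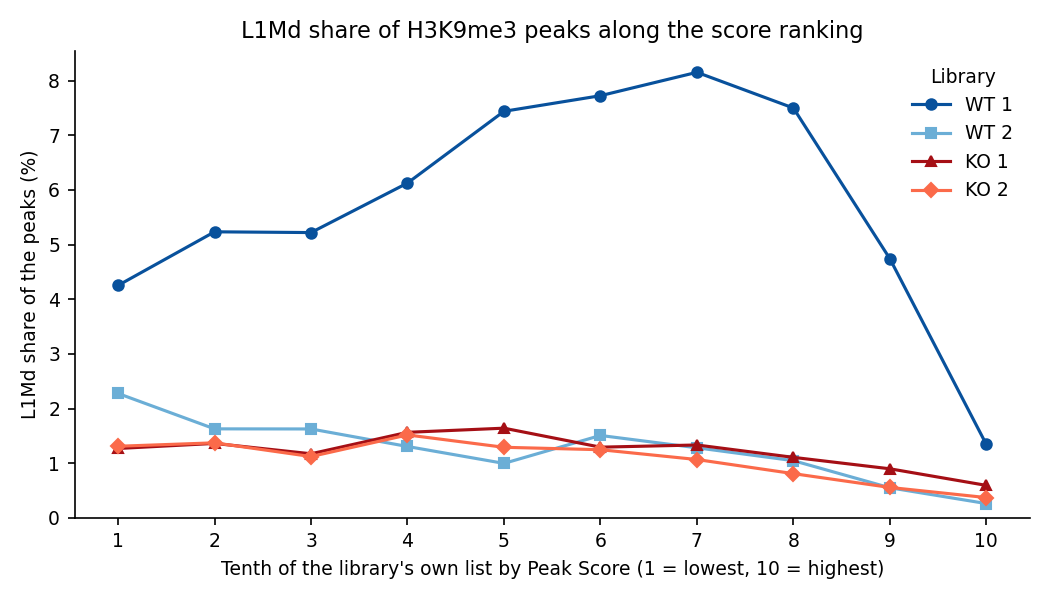
L1Md share of the peaks (percent) in each decile of a library's own list ranked by Peak Score, from lowest (1) to highest (10), with 1 line per library. The line of WT replicate 1 peaks at 8.15% in decile 7, the other 3 lines stay under 2.3%, and all 4 are lowest in the top decile.

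Most L1Md peaks were narrow. A width of exactly 500 bp, the commonest width in the lists, was found for 47.1% and 78.1% of L1Md peaks in WT and 68.3% and 63.5% in KO, beside 47.0% and 60.7%, and 55.1% and 48.3%, of all peaks. No L1Md peak was narrower, so a median of 500 bp stands at the lower limit of their widths. The median width was 628 bp in WT replicate 1 and 500 bp in the other libraries (exact permutation p = 1), and the mean was 688, 586, 650 and 669 bp in the order used above. L1Md peaks were narrower than IAP peaks in 4 of 4 libraries, with a difference in mean width of -304 ± 55.0 bp (L1Md minus IAP, SD over 4 within-library differences; means 648 and 952 bp). The exact sign-flip permutation p was 0.13, the smallest that 4 libraries allow (0.159 adjusted over 14 such tests). Against older L1 peaks the difference was -39.0 ± 27.7 bp, again narrower in 4 of 4 libraries (exact p = 0.13, adjusted 0.159). The share of peaks over 500 bp did not follow this in WT replicate 1, where it was 52.9% for L1Md and 43.4% for older L1 peaks. It was lower for L1Md peaks in the other 3 libraries (mean difference over 4 libraries -4.36 ± 9.41 points, exact p = 0.375, adjusted 0.438; -8.98 without WT replicate 1). In WT, L1Md_T peaks averaged 642 and 608 bp, L1Md_F2 peaks 700 and 586 bp. In KO, L1Md_T peaks averaged 646 and 855 bp and L1Md_F2 peaks 658 and 669 bp.

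The 3 widest L1Md peaks of all lists were annotated to L1Md_F2, and each lay in a region with a peak in all 4 libraries. The widest, 7006 bp in KO replicate 2 at chr5:105309072-105316078 (mm9), was intergenic, 23.5 kb from the start of Zfp951 and in the 99.9th percentile of its list. KO replicate 1 had its own peak of 5608 bp there (chr5:105310420-105316028). The third was a peak of 5569 bp in WT replicate 1 at chr9:11512057-11517626, intergenic and 610 kb from the start of Cntn5, in the 99.6th percentile.

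L1Md peaks of the KO libraries were shared more often with WT replicate 1 than with each other. Peaks of different lists were counted as overlapping when they shared at least 1 bp. Of the L1Md peaks of KO replicate 1, 29.1% overlapped a peak of KO replicate 2 and 38.8% a peak of WT replicate 1. Of those of KO replicate 2, 25.3% overlapped a peak of KO replicate 1 and 37.1% a peak of WT replicate 1. All peaks showed the opposite order: 48.7% of KO replicate 1 peaks overlapped KO replicate 2 and 27.4% WT replicate 1, and 34.3% of KO replicate 2 peaks overlapped KO replicate 1 and 25.2% WT replicate 1. Older L1 peaks followed the order of all peaks, at 43.6% with KO replicate 2 and 21.5% with WT replicate 1 for KO replicate 1. IAP peaks had the same order as L1Md peaks. Of those of KO replicate 1, 64.9% overlapped WT replicate 1 and 49.8% KO replicate 2, and of those of KO replicate 2, 62.0% overlapped WT replicate 1 and 38.7% KO replicate 1. The order was thus not particular to L1Md peaks. WT replicate 1 also held more peaks of both kinds to meet: 4961 L1Md peaks against 1367 and 1651 in KO, and 1154 IAP peaks against 410 and 568. By covered length its whole list was the shorter, at 72.1 Mb against 81.5 and 129 Mb. Whether these counts set the order was not tested. Of the 283 L1Md peaks of WT replicate 2, 203 (71.7%) overlapped a peak of WT replicate 1, 111 (39.2%) one of KO replicate 1 and 106 (37.5%) one of KO replicate 2. The shares over all its peaks were 57.4%, 44.3% and 48.8%, so the overlap of L1Md peaks was above that of all peaks for WT replicate 1 and below it for both KO libraries. Of the 4961 of WT replicate 1, only 4.45%, 18.4% and 20.1% overlapped WT replicate 2, KO replicate 1 and KO replicate 2, against 15.1%, 34.9% and 45.4% of all its peaks.

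**Figure D3:**
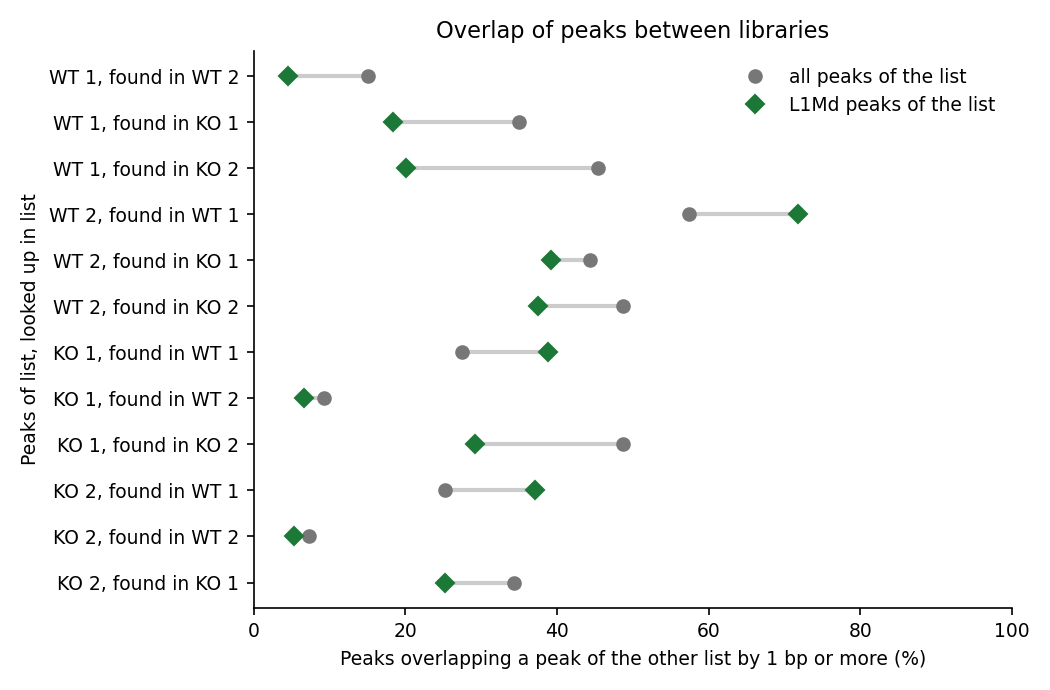
Share of the peaks of each list that overlap a peak of another list by at least 1 bp (percent), for L1Md peaks (green diamonds) and all peaks (grey circles), with 1 line per ordered pair of libraries. L1Md peaks lie above all peaks in the 3 lines that look into WT replicate 1 and below them in the other 9. WT replicate 1 held 4961 L1Md peaks, against 283 in WT replicate 2 and 1367 and 1651 in KO.

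By name, the part of the WT replicate 1 peaks that KO libraries shared was in general smaller for the families with mobile copies. KO replicate 2 overlapped 11.7% of L1Md_A, 11.9% of L1Md_T and 10.4% of L1Md_Gf peaks of WT replicate 1, but 27.6% of L1Md_F, 22.1% of L1Md_F2 and 23.8% of L1Md_F3 peaks. KO replicate 1 overlapped 13.7%, 14.9% and 18.8% of the first 3 and 21.9%, 18.6% and 24.1% of the F names. Looked up from the KO lists, the order of the 2 pooled groups was reversed. Of the L1Md_A, L1Md_T and L1Md_Gf peaks of KO replicate 1, 48.1% overlapped a peak of WT replicate 1, against 37.6% of its F-name peaks. In KO replicate 2 these shares were 41.0% and 36.8%. The single names did not all follow this. In KO replicate 1, L1Md_F (49.3%) lay above L1Md_A (47.6%) and L1Md_T (46.2%), and L1Md_F2 was lowest at 32.4%. In KO replicate 2, L1Md_T was highest (47.5%), but L1Md_F (42.6%) and L1Md_F3 (38.7%) lay above L1Md_A (37.7%) and L1Md_Gf (37.5%). Shared peaks ranked higher than unshared ones in each of the 12 ordered pairs of lists. In WT replicate 1, for example, L1Md peaks overlapped by KO replicate 1 had a median percentile of 61.8 and the others 49.3. Where an L1Md peak met a peak in another list, that list did not always annotate it to L1Md: 83.8% and 80.4% of the shared L1Md peaks of KO replicates 1 and 2 met an L1Md peak in WT replicate 1, but 48.8% and 49.3% of those of WT replicate 1 met one in KO replicates 1 and 2.

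Merging overlapping peaks of the 4 lists gave 250064 regions, 6969 of them with an L1Md peak. A peak in WT replicate 1 alone marked 3321 L1Md regions (47.7%), against 13.9% of all regions, and 1136 of the 1676 regions with an L1Md_A, L1Md_T or L1Md_Gf peak (67.8%). Both KO libraries and neither WT library had a peak in 217 L1Md regions (3.11%), beside 11.3% of all regions. Both WT libraries and neither KO library had one in 101 (1.45%), beside 0.993% of all regions. Among regions of mobile families the 2 counts were 19 (1.13%) and 28 (1.67%). All 4 libraries shared 121 L1Md regions (1.74%), beside 3.06% of all regions, and 13 regions of mobile families. In 30 of these 121 regions (24.8%) the percentile of the region's strongest peak was higher in both KO than in both WT libraries and in 4 (3.31%) lower in both. Among all regions in 4 libraries these shares were 34.7% and 7.12%. A region needs an L1Md peak in only 1 library, and its strongest peak in a library need not carry an L1Md name. These percentiles, and those that follow, therefore describe regions and not L1Md peaks alone. The median percentiles over the 121 regions were 86.8 and 52.9 in WT and 86.9 and 82.6 in KO, with WT replicate 2 the low one. It was also the low one over all regions in 4 libraries, at 73.2 beside 90.1 to 92.3. In the 592 L1Md regions with a peak in WT replicate 1 and both KO libraries, whether or not WT replicate 2 had one, WT replicate 1 lay above both KO libraries in 32.4% and below both in 31.9%, beside 22.3% and 45.8% of all 22953 such regions.

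**Figure D4:**
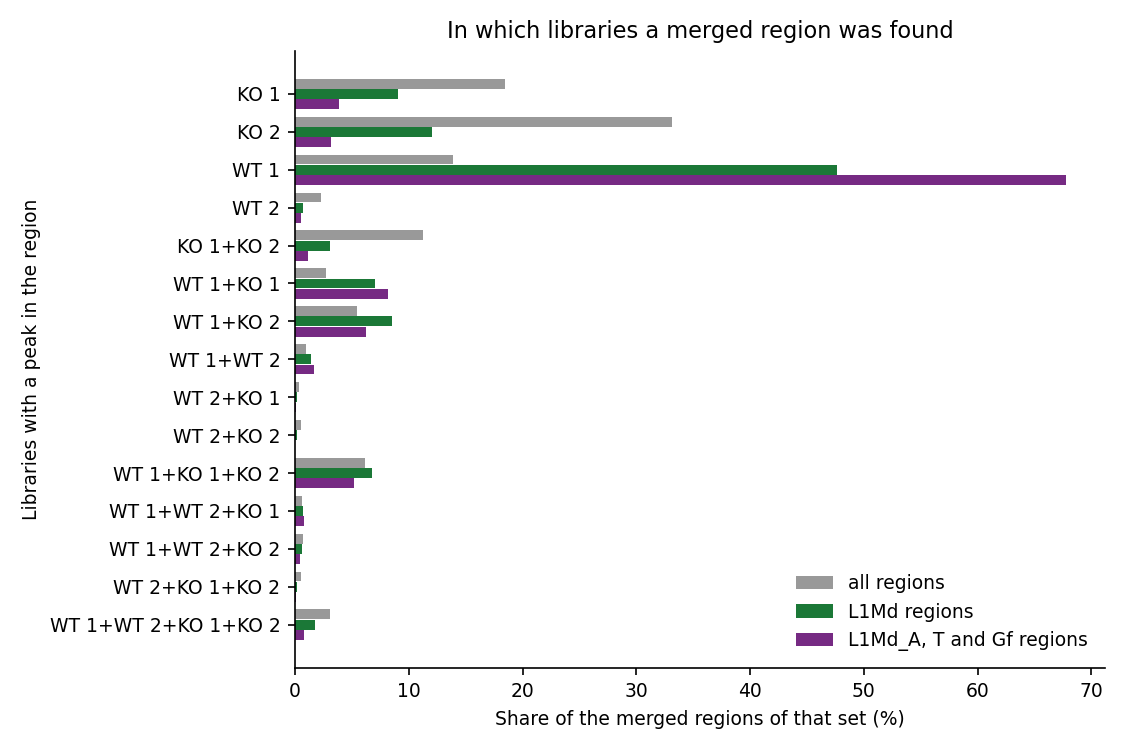
Share of merged regions (percent) by the exact set of libraries with a peak in the region, for all regions (grey), L1Md regions (green) and regions with an L1Md_A, L1Md_T or L1Md_Gf peak (purple). Regions found in WT replicate 1 alone hold 47.7% of the L1Md and 67.8% of the mobile-family regions against 13.9% of all regions, while KO 1+KO 2 holds 3.11% against 11.3%.

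The regions shared by all 4 libraries with the highest mean percentile were looked at for each name. For L1Md_T it was an intergenic region of 4398 bp at chr7:113663330-113667728 (mm9), 81.2 kb from the start of Gm4759. Its percentiles were 99.3 and 95.1 in WT and 99.6 and 99.1 in KO, and every peak in it was annotated to L1Md_T. For L1Md_F3 it lay at chr3:106651951-106656790, intergenic and 29.9 kb from Olfr266, at percentiles of 98.6 and 78.0 in WT and 98.6 and 97.2 in KO. For L1Md_A it was a small region of 1123 bp at chr15:82330227-82331350, 48.0 kb from Cyp2d9, a cytochrome P450 gene, at 83.02 and 32.3 in WT and 86.9 and 77.4 in KO. Its peak in KO replicate 2 was annotated to another repeat, RMER16-int, so that value is not one of an L1Md_A peak. As to the F lineage, the highest regions of L1Md_F (chr17:22059613-22068315) and L1Md_F2 (chr7:28766044-28779575) were not peaks of the element itself. Their strongest peaks were annotated to gene ends, in the L1Md_F2 region to the last exon of the zinc finger gene Zfp850. The L1Md_F name came from a further peak in each WT list, and the L1Md_F2 name from a peak in WT replicate 2 alone. L1Md_Gf had no region in all 4 libraries among 105. The share of regions found in all 4 was 0.821% for L1Md_A and 0.951% for L1Md_T, but 2.05% for L1Md_F, 2.10% for L1Md_F2 and 1.88% for L1Md_F3.

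L1Md peaks had a larger distance to start sites than all peaks in each list. The median distance to the nearest annotated start site was 187 kb and 119 kb in WT and 212 kb and 193 kb in KO, against 103, 59.6, 146 and 148 kb for all peaks of the same lists. Compared with IAP peaks they were farther away in 4 of 4 libraries, by 109 ± 25.1 kb (mean and SD of the within-library differences of medians; exact sign-flip permutation p = 0.13, adjusted 0.159). Compared with older L1 peaks they were nearer in 4 of 4, with a difference of -14.0 ± 9.58 kb (exact p = 0.13, adjusted 0.159). Of the 8262 members 1 had a start site within 1 kb, an L1Md_F2 peak of KO replicate 1 at 708 bp from the start of Gm13078, so no gene met that distance in 3 libraries. Because a repeat name was required, peaks annotated to promoters, exons or gene ends could not be members: L1Md, older L1 and IAP peaks were all intergenic or intronic by that choice. The scarcity near start sites and the comparison with all peaks are therefore partly set by the rule, and the comparisons with older L1 and IAP peaks are made within the same choice. Introns held 12.7% and 18.4% of L1Md peaks in WT and 13.6% and 13.4% in KO, a difference from older L1 peaks of -4.47 ± 0.995 points (lower in 4 of 4, exact p = 0.13, adjusted 0.159). Against IAP peaks the intron share was 6.04 ± 2.16 points higher (higher in 4 of 4, exact p = 0.13, adjusted 0.159).

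The intronic L1Md peaks numbered 1092 over the 4 lists. By the transcript named in the annotation, 1088 of them were assigned a gene symbol, and these fell in 486 host genes. Of these genes 296 had an L1Md peak in 1 library, 45 in 3 and 20 in all 4. The genes named here were chosen after their values were seen. Skint6 and Skint5, relatives of the Skint1 gene that skin gamma-delta T cells need for their selection, held the most regions, with 8 and 1 peaks in WT and 4 and 7 in KO in Skint6, and 6 and 1 in WT and 2 and 3 in KO in Skint5. Of the genes with a peak in 3 or 4 libraries, Lrrc4c and Ptprd had 9 regions each and Macrod2 and Nkain2 8 each. These counts were not set against intron length or against all peaks of a gene. Ccdc146, a coiled-coil gene, had 3 L1Md peaks in each of the 4 libraries. Ikzf2 (Helios, a transcription factor of regulatory and activated T cells) had 1 and 2 in WT and 1 and 1 in KO, within 1 merged region.

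Among the autosomes and X, L1Md peaks were most concentrated on X. They made up 16.8% of the X peaks in WT replicate 1, 4.62% in WT replicate 2 (9 of 195), 4.69% in KO replicate 1 (18 of 384) and 3.88% in KO replicate 2 (18 of 464). No autosome reached these levels: the highest was chromosome 3 in every library, at 8.40% and 1.78% in WT and 1.93% and 1.38% in KO. Chromosome 11 was the lowest autosome in WT replicate 1 and both KO libraries (2.68%, 0.445% and 0.671%), and chromosome 8 in WT replicate 2 (0.377%). The share of L1Md peaks that lay on X exceeded that of older L1 peaks in 4 of 4 libraries, by 2.15 ± 1.99 points (L1Md mean 4.21%, older L1 mean 2.07%, exact sign-flip permutation p = 0.13, adjusted 0.159). Without WT replicate 1, in which 11.3% of L1Md peaks lay on X against 1.09% to 3.18% elsewhere, the difference was 1.21 points. Against IAP peaks it was higher in the WT libraries and lower in the KO libraries (mean difference 0.632 ± 1.39 points, exact p = 0.5; 0.0020 without WT replicate 2).

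**Figure D5:**
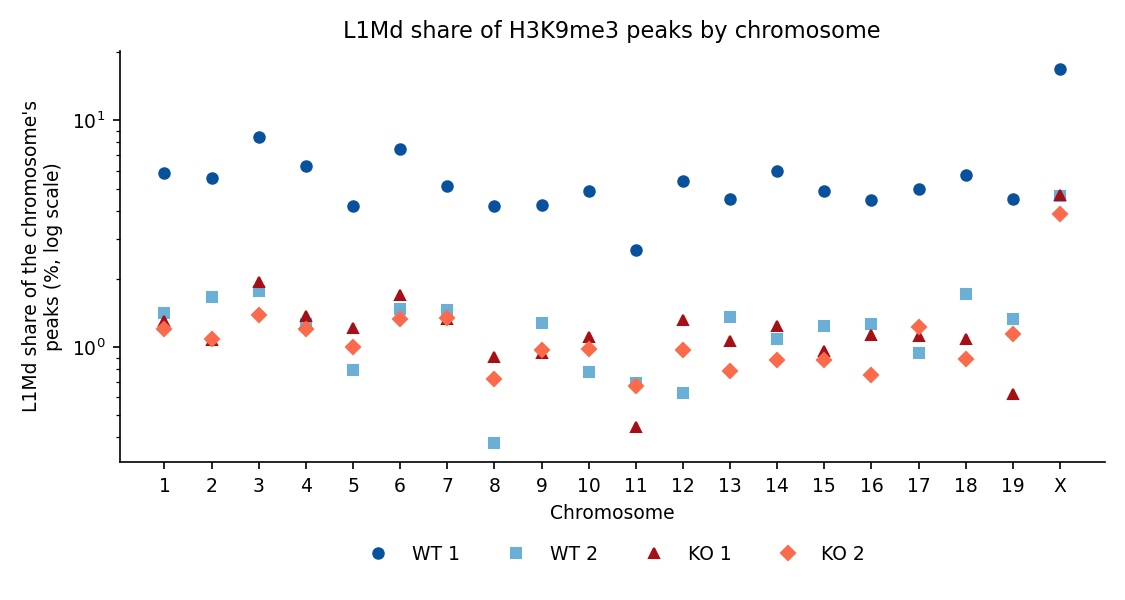
L1Md share of the H3K9me3 peaks on each chromosome (percent, log axis), with 1 point per library. Chromosome X is highest in each library (16.8%, 4.62%, 4.69% and 3.88%), chromosome 3 is the highest autosome, and WT replicate 1 lies above the other 3 libraries on every chromosome shown.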

How the data were processed

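The 4 H3K9me3 peak lists were used, 1 per immunoprecipitated library. The 10 RNA libraries and the 4 input libraries were not analysed here, nor were element sequences. Per the submitters' processing notes the tools were Bowtie and HOMER, with mm9 as the build, and per the file headers the annotation also used mm9. Versions, the threshold, the use of input and the treatment of reads that map to several copies of a repeat were not given in the sources used here. Because the score that the authors deposited has no stated scaling between lists, it was turned into a mid-rank percentile within its list. The width in base pairs and the distance to the nearest start site are the deposited values.

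Members were found from the deposited annotation. Overlaps (1 bp), merged regions (connected overlapping peaks) and shares were computed with numpy 2.4.6, pandas 2.3.3 and scipy 1.17.1 in Python 3.11.15, in code tested on simulated lists. Each library gave 1 value. Genotypes were compared by exact permutation, and element groups by exact sign-flip permutation of within-library differences, both two-sided. All names were reported, and for single regions the rule took the region in all 4 libraries with the highest mean percentile per name, outside chromosome 18, the 3 widest peaks, and start sites within 1 kb in 3 libraries. The members, groups and rules were chosen with earlier results of these data known.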

Additional observations from a re-analysis of the deposited data

How the results depend on the processing

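Alternatives were equally long lists (the top 23304 peaks), lists without satellite peaks, assembled chromosomes, autosomes (chosen after seeing the data), peaks above the median score, the mobile families alone, an overlap of at least 50% of the shorter peak and each library left out. No test of 2 against 2 libraries can pass 0.05, so only directions (KO minus WT) can be compared, and the cause of each change below was not tested. The difference in L1Md share kept its sign throughout and ran from -4.62 to -0.067 points with 1 library left out. The difference in median width, -64 bp, became 707 bp in the equally long lists and 12.2 bp above the median score. The difference in median percentile, 2.83, became -5.63 without WT replicate 2 and -0.131 without KO replicate 1, and ran from -5.63 to 11.3 over the libraries left out. The difference in overlap with the other library of the genotype, -10.9 points, became 5.08 in the equally long lists. The differences for L1Md_F and L1Md_F2 ran from -0.808 to 0.0123 and from -1.87 to 0.0167 points with 1 library left out, above 0 only without WT replicate 1. The within-library difference in percentile from older L1 peaks, 1.48, ran from -1.74 without WT replicate 1 to 3.72. The share of L1Md regions in 2 or more libraries, 30.5%, was 21.5% in the equally long lists, 24.6% for the mobile families, 32.7% on autosomes and 22.1% at the stricter overlap. The 30 regions with both KO percentiles above both WT percentiles became 12 of 42 in the equally long lists and 3 of 13 for the mobile families.

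With the replicate number as a replicate block the difference in L1Md share was -2.35 points as before (exact sign-flip permutation p = 0.5, the smallest for 2 pairs). Same-numbered libraries deviated apart over 136 repeat names (r = -0.366), and crossed numbers were also tried, chosen after seeing the data. With a smallest p of 0.5 neither pairing could call a difference, so no conclusion is drawn from them.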
